A study of Mus musculus with 2 samples.

Results

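The MEF2 family genes Mef2a, Mef2b, Mef2c and Mef2d were examined as places of TCF12 binding in CH12.LX, an immortalised mouse line derived from a B-cell lymphoma (strain B10.H-2aH-4bp/Wts). The members were taken by family, with earlier results of these data known. They are 4 of 21314 protein-coding genes with a known strand, and 36 of 35848 optimal peaks had their summit in a member's window, which opened 10 kb before the gene's 5' end and closed at its 3' end. The assay was chromatin immunoprecipitation and sequencing (ChIP-seq) with an antibody to TCF12, and the labels name no treatment. There was 1 group with 2 biological replicates, separate samples of the same female line, and no group without TCF12 or with another treatment. The files give no expression, so a peak says where TCF12 was recovered and not whether the gene was active.

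MEF2 proteins are MADS-box transcription factors that bind an A/T-rich DNA element as pairs. Class IIa histone deacetylases hold them inactive on DNA, and calcium and MAP kinase signals release or activate them. MEF2C is known for B-cell development and for proliferation after B-cell receptor stimulation, MEF2B for the germinal centre and for mutations in human B-cell lymphoma, and MEF2D for gene fusions in human B-cell leukaemia. TCF12 (HEB) is an E protein, a class of basic helix-loop-helix factors that bind the E-box, CANNTG.

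All 4 members carried at least 1 optimal peak, as did 57.2% of all genes. Mef2b, Mef2c and Mef2d had 10, 11 and 10 peaks, and Mef2a had 5. Of all genes, 1.47% had 10 or more, but longer genes can hold more peaks, and the line of 10 was set after the values were seen. The strongest peak of every member had a signal of 100 or more, a level reached by 11.2% of genes (also a line set afterwards). Optimal peaks are those that the authors kept after ranking the replicates' and the pooled peaks by how well they repeat (the irreproducible discovery rate, IDR). The conservative list is another product of the same step, and the relaxed lists hold each replicate's peaks before that step. Signal is the peak caller's own value per peak, deposited with no stated scaling, and read depth is unknown.

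The DNA under the 3 strongest mm9 peaks of each gene is shown first, so that the E-boxes and other motifs can be read in it. Also shown is 1 weaker Mef2c peak that held a pair of other motifs. Sequence was read on the mm9 build from the authors' separate list of 23575 mm9 peaks, 25 of which had summits in the members' mm9 windows. Each sequence is the 50 bp on either side of the summit, on the gene's own strand. Capitals mark the motifs searched, on either strand: the main E-box CAGCTG, the other main E-box CACCTG, a looser E-box CATCTG and a palindromic E-box CACGTG. The others were the octamer ATGCAAAT of OCT factors, the EBF1 site CCCNNGGG, the PU.1 type of ETS site GAGGAAGT, the common ETS site CCGGAAGT, the AP-1 site TGANTCA, the RUNX site TGTGGTT, the IRF site GAAANNGAA, the NF-kappaB site GGGANTTCC, the cyclic AMP site (CRE) TGACGTCA, and the MEF2 consensus. On the opposite strand the octamer reads as ATTTGCAT and the other main E-box as CAGGTG. The E-boxes are all cases of CANNTG, which was counted but is not marked. Peaks are numbered by signal within a gene and a list, strongest first, so a number on mm9 need not be the same peak as on mm10.
Mef2b mm9 peak 1, intron 1, chr8:72682563-72682663 (mm9, plus strand): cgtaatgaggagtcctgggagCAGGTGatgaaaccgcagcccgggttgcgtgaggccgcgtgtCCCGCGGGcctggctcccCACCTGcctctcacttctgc
Mef2b mm9 peak 2, intron 1, chr8:72684073-72684173 (mm9, plus strand): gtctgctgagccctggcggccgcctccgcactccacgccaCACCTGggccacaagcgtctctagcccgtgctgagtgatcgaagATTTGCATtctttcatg
Mef2b mm9 peak 3, promoter, chr8:72676595-72676667 (mm9, plus strand, ended 8 bases into the transcript): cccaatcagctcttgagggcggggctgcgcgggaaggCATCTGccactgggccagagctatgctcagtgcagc
Mef2d mm9 peak 1, intron 1, chr3:87952353-87952453 (mm9, plus strand): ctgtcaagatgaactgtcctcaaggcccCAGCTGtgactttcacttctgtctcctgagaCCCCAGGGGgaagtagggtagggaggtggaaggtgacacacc
Mef2d mm9 peak 2, upstream of the gene, chr3:87942331-87942431 (mm9, plus strand): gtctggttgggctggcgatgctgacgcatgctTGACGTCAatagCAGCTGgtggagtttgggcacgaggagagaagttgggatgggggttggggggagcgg
Mef2d mm9 peak 3, intron 1, chr3:87951553-87951653 (mm9, plus strand): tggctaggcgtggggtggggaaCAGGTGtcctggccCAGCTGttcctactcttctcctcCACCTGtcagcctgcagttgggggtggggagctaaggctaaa
Mef2c mm9 peak 1, intron 7, chr13:83789623-83789723 (mm9, plus strand): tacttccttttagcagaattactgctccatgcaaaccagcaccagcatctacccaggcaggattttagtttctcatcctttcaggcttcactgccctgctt
Mef2c mm9 peak 2, intron 4, chr13:83748544-83748644 (mm9, plus strand): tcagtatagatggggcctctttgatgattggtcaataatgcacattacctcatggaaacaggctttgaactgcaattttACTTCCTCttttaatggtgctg
Mef2c mm9 peak 3, intron 2, chr13:83663837-83663937 (mm9, plus strand): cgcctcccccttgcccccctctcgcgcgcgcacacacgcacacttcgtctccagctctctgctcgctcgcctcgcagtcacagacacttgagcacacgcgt
Mef2c mm9 peak 4, intron 2, chr13:83678997-83679097 (mm9, plus strand): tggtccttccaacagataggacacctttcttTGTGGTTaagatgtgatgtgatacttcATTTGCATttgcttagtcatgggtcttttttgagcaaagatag
Mef2a mm9 peak 1, promoter, chr7:74517737-74517810 (mm9, minus strand, ended 8 bases into the transcript): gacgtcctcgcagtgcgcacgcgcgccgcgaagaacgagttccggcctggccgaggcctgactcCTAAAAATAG
Mef2a mm9 peak 2, intron 1, chr7:74497964-74498064 (mm9, minus strand): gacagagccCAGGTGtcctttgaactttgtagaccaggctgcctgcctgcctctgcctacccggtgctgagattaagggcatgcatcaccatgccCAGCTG
Mef2a mm9 peak 3, upstream of the gene, chr7:74518357-74518457 (mm9, minus strand): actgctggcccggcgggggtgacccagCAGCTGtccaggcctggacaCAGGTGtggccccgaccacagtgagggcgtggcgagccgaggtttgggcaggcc
Introns are numbered in the longest coding transcript of GENCODE vM1, and upstream is counted from the mm9 gene of that annotation. Mef2a mm9 peak 3 is upstream there, though on mm10 it lies inside the RefSeq gene span. Within 50 bp of the summit, main E-boxes lay in Mef2b peaks 1 and 2 but not 3. They also lay in Mef2d peaks 1, 2 and 3, in Mef2a peaks 2 and 3 but not 1, and in none of the Mef2c peaks shown. Mef2a peak 1 held a MEF2 consensus and no CANNTG within that distance. By distance from the RefSeq start, the mm9 peaks shown for Mef2a, Mef2b and Mef2d are the mm10 peaks of the same number. Mef2c mm9 peaks 3 and 4 are mm10 peaks 4 and 7. Mef2c mm9 peaks 1 and 2 had no mm10 peak within 100 bp of the same distance. The strongest mm10 peak of Mef2c had no mm9 peak at its place, so its DNA was not read.

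Mef2b, whose product acts in germinal centre B cells, had the strongest peak of the family. Its gene spans 14.7 kb on the plus strand of mm10 chromosome 8 (70152761 to 70167488, gene ID 17259). Peak 1, at chr8:70158550-70158888 in the first intron and 5946 bp past the 5' end, had a pooled signal of 269, with 163 in replicate 1 and 107 in replicate 2. Peak 2, at chr8:70160051-70160374, had 240, with 142 and 97.9. Peak 3, at chr8:70152634-70152866, had its summit at -15 bp, counted from the 5' end with upstream negative, and a signal of 179, with 105 and 75.4. All 3 were high in both replicates, and 0.326%, 0.589% and 1.86% of all optimal peaks were stronger than peaks 1, 2 and 3.

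Upstream of Mef2b, 6 peaks lay at or before the 5' end. The strongest after the promoter peak was peak 4 at -2391 bp (chr8:70150299-70150425), with a signal of 138, 101 in replicate 1 and 37.0 in replicate 2. Peaks 5 and 6, at -6026 and -4494 bp, had 79.1 (59.0 and 23.9) and 71.5 (48.9 and 24.8). These 2 summits, and those of peaks 9 and 10, also fell within Borcs8, the neighbouring gene of a lysosome-positioning complex subunit, so they cannot be assigned to Mef2b alone. All 10 lay within Gm45929, a RefSeq gene whose span covers both Borcs8 and Mef2b. Of the remaining peaks, 3 had signals from 18.7 to 60.6 and the weakest had 13.8. The weak peaks 8 and 10 were 4.48 and 3.92 times as high in replicate 1 as in replicate 2, while the weak peak 9 was 0.585 times as high (8.08 and 13.8). The replicate 1 value at peak 9 came from an overlapping relaxed peak whose summit lay outside peak 9.

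Mef2d, a widely expressed member, was second in peak strength. It spans 30.2 kb on the plus strand of chromosome 3 (88141941 to 88172091, gene ID 17261), and its peaks all lay between -3462 and 7261 bp, with none over the rest of the gene. Peak 1, at chr3:88148375-88148571 and 6540 bp past the 5' end, had a signal of 201, with 113 in replicate 1 and 88.1 in replicate 2. Peak 2, at -3462 bp (chr3:88138287-88138670), had 100.3, with 73.8 and 26.0. Peak 3, at 5740 bp (chr3:88147631-88147734), had 91.4, with 49.4 and 40.5. The upstream peak was 2.84 times as high in replicate 1, against 1.28 and 1.22 times for peaks 1 and 3. With each replicate divided by its own median over all optimal peaks, the upstream peak was 1.73 times as high in replicate 1, and peaks 1 and 3 were 0.777 and 0.743 times as high.

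Peaks 4, 5 and 6 of Mef2d had signals of 72.9, 62.4 and 59.5, at 2236, 255 and 7261 bp. The other 4 ranged from 21.6 to 34.5. Peaks 5 and 7 overlapped, and both were matched to 1 and the same relaxed peak in each replicate (38.8 and 25.5). Peak 10, the weakest, was 0.352 times as high in replicate 1 (5.35) as in replicate 2 (15.2), the lowest ratio in the family.

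Mef2c, the member most studied in B cells, had peaks spread along the gene and none at its first start. The gene spans 163 kb on the plus strand of chromosome 13 (83504017 to 83667079, gene ID 17260), and its first peak lay 20795 bp past the 5' end. RefSeq lists 3 starts for it. Peak 1, at chr13:83572105-83572255, lay at -1412 bp from the third start and had a signal of 158, with 87.1 in replicate 1 and 77.0 in replicate 2. Peak 2, deep in the gene at 146051 bp (chr13:83649876-83650259), had 119, with 87.8 and 31.6. Peak 3, at 105293 bp (chr13:83609118-83609501), had 100.1, with 63.2 and 40.3. Replicate 1 therefore put peaks 1 and 2 level, while in replicate 2 peak 1 stood above all others of the gene.

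Peak 4 of Mef2c, 1156 bp past the second start, had a signal of 68.8, with 37.8 and 30.1. Peak 5, at -7187 bp from the third start, had 43.8, and peak 6, at -871 bp from it, had 41.4. The values matched to peak 6 were 24.3 in replicate 1 and 31.2 in replicate 2. That replicate 1 value came from an overlapping relaxed peak whose summit lay outside peak 6. The weakest peak had 19.0 and the remaining 4 had 20.5 to 34.0, and peaks 8 and 11 overlapped each other. Both of these were matched to 1 and the same relaxed peak in each replicate (17.0 and 11.5). Replicate 2 was the higher at 4 of the 11 Mef2c peaks, against 1 of 10 for Mef2b.

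Mef2a, best known from heart and skeletal muscle, had the fewest peaks and the lowest top signal, though its median was above that of Mef2c. It spans 145 kb on the minus strand of chromosome 7 (67231163 to 67376456, gene ID 17258). Peak 1, at chr7:67372779-67372946, had its summit at -16 bp from the RefSeq start, which lies inside the span, and a signal of 101, with 68.3 in replicate 1 and 35.0 in replicate 2. Peak 2, at 19693 bp past that start (chr7:67352973-67353356), had 59.7, with 30.4 and 31.6. Peak 3, at -658 bp (chr7:67373324-67373707), had 54.9, with 48.6 and 14.8. Peak 3 was 3.29 times as high in replicate 1, and peak 2 was 0.962 times as high. Divided by each replicate's median over all optimal peaks, these ratios were 2.00 and 0.585, so the replicates put the pair in opposite orders. Peak 4, at -12771 bp, had 38.7 (25.4 and 12.3), and peak 5, near the 3' end, had 11.8 (6.03 and 3.99).

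**Figure D1:**
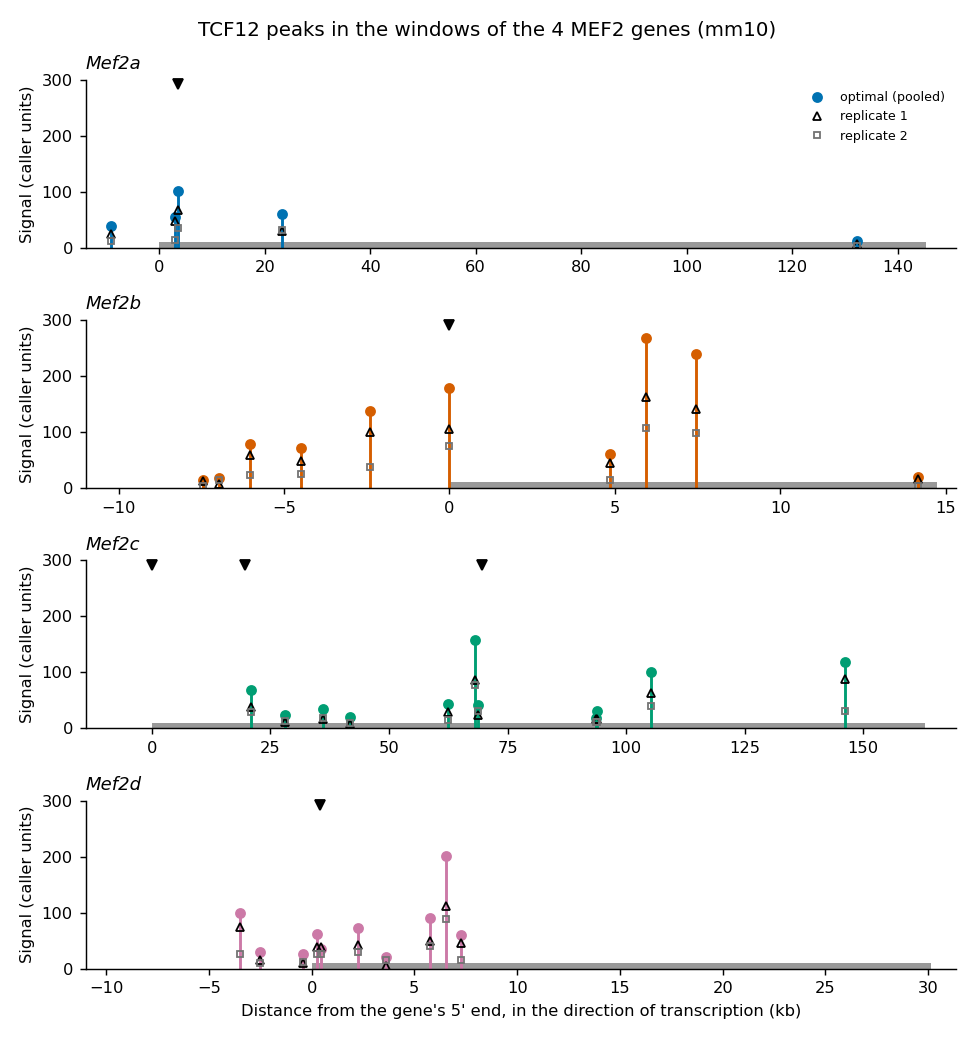
Signal of each optimal peak (coloured stems, caller units) against its distance from the gene's 5' end in kb, for the 4 MEF2 genes on mm10, with replicate 1 as triangles, replicate 2 as squares, the gene body as a grey bar and RefSeq starts as black arrowheads. Mef2b and Mef2d peaks crowd around the start and first intron, with the highest at 269 and 201, while Mef2c peaks lie between 20795 and 146051 bp past its 5' end and Mef2a has 5.

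Counted per 10 kb of window, the peaks numbered 4.04 at Mef2b, 2.49 at Mef2d, 0.636 at Mef2c and 0.322 at Mef2a. These windows spanned 24.7, 40.2, 173 and 155 kb, so the fixed 10 kb upstream weighs more at the short genes. It held 6 of the 10 Mef2b peaks. The median signal per member was 75.3, 60.9, 41.4 and 54.9 in the same order, against 35.0 over all optimal peaks. Of the 36 peaks, 23 (63.9%) were above that overall median and 10 had a signal of 100 or more, a level reached by 9.02% of all optimal peaks. The highest scaled IDR score of 1000, given to peaks whose rank repeats best between replicates, was held by 24 of the 36 (66.7%), against 53.9% overall. Peaks of different members share the same 2 libraries, and no test was made of these differences.

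**Figure D2:**
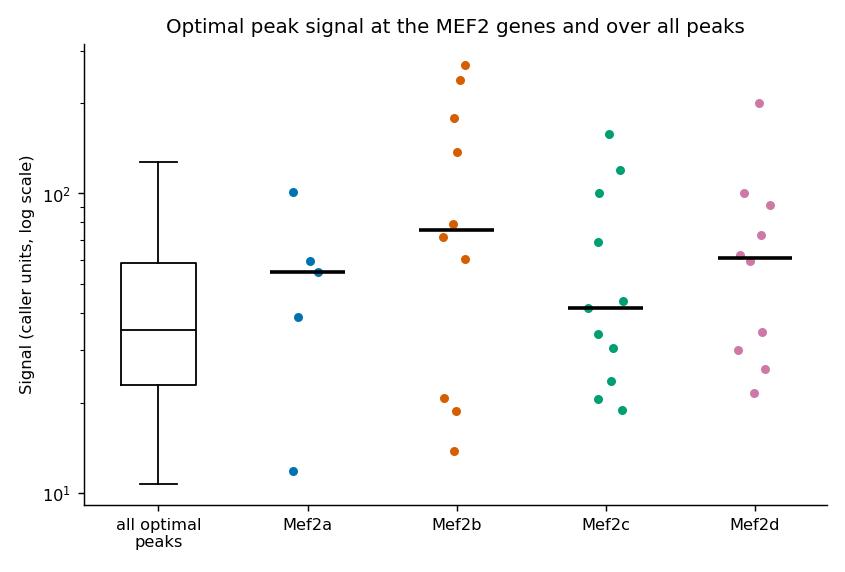
Signal of every optimal peak of each MEF2 gene (points, caller units, log axis) with the gene's median as a bar, beside all 35848 optimal peaks (box from the lower to the upper quartile, whiskers from the 5th to the 95th percentile). The Mef2b, Mef2d and Mef2a medians (75.3, 60.9 and 54.9) lie further above the overall median of 35.0 than that of Mef2c (41.4), and the ranges of the 4 genes overlap.

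All 36 peaks were found in both replicates' relaxed lists, as were 97.1% of all optimal peaks. Replicate 1 gave the larger signal at 28 of the 36, with a median ratio of 1.50 and a range from 0.352 to 4.48. Over all optimal peaks the median ratio was 1.66, and 85.7% were higher in replicate 1, so a ratio near 1.66 was typical of this pair of libraries. To set the replicates on one scale, each strongest signal was divided by that replicate's median over all optimal peaks, 24.6 in replicate 1 and 14.9 in replicate 2. The strongest value then came to 6.91 ± 0.393 (SD, n = 2) times the median for Mef2b, 5.24 ± 0.929 for Mef2d, 4.36 ± 1.12 for Mef2c and 2.56 ± 0.310 for Mef2a. For Mef2c the strongest was peak 2 in replicate 1 (3.57) and peak 1 in replicate 2 (5.15), so its mean and SD mix 2 peaks.

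The order Mef2b, Mef2d, Mef2c, Mef2a was the same in each replicate alone. Mef2b ranged from 6.63 to 7.18 times the median and Mef2a from 2.34 to 2.78, and neither overlapped another member. Mef2d (4.58 to 5.90) and Mef2c (3.57 to 5.15) overlapped in range. Both genes were measured in the same 2 libraries, and within them Mef2d was above Mef2c by 1.01 and 0.74 times the median (mean 0.875 ± 0.189, SD, n = 2). The Mef2c value came from a different peak in each library. An exact two-sided sign-flip test over 2 replicates cannot go below p = 0.5, so no order was tested. By strongest signal the nearest genes in the whole list were Pax5 (271) above Mef2b and Gm45929 below it, which holds the same peak. Mef2d stood between Ppp1r16b (201.1) and Zc3h12a (200.3), Mef2c between Cyba (158.04) and Psmd2 (157.9), and Mef2a between Ivns1abp (101.3) and Foxo1 (101.18). This is likeness in 1 number over the pooled list and no more.

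**Figure D3:**
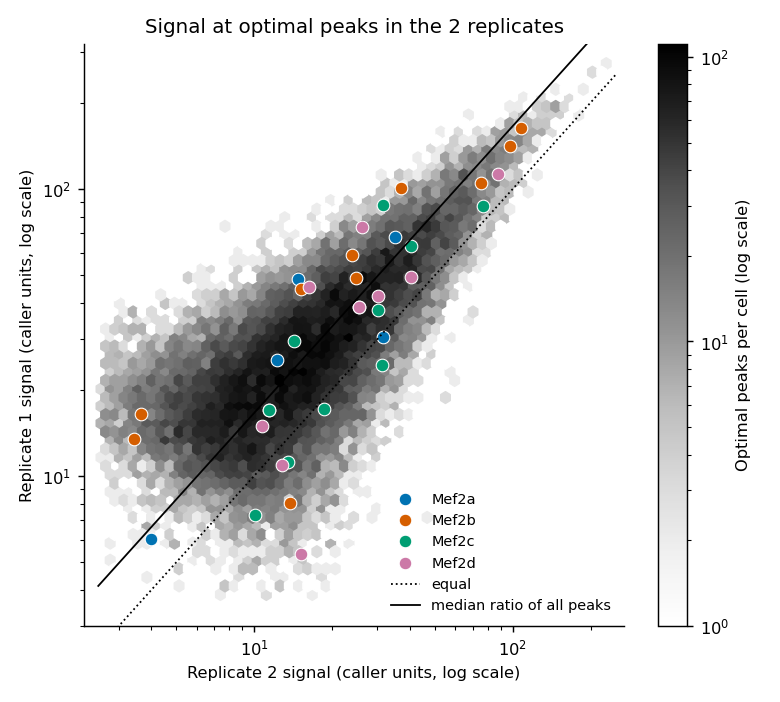
Replicate 1 signal against replicate 2 signal (caller units, both axes log) at the 34817 optimal peaks found in both (grey, darker for more peaks), with the 36 MEF2 gene peaks coloured by gene. The dotted line marks equal signal and the solid line the overall median ratio of 1.66, and 28 of the 36 peaks lie above the dotted line.

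The relaxed lists, which keep 300000 peaks per replicate with much background, held more summits in each window. In replicates 1 and 2 there were 36 and 44 for Mef2a, 25 and 20 for Mef2b, 60 and 59 for Mef2c, and 24 and 25 for Mef2d. Most were weak: the median signal in these windows was 6.08 and 4.11 for Mef2a and 11.7 and 5.61 for Mef2b. The strongest relaxed peak outside the optimal list lay in the Mef2d window at -8266 bp in replicate 1 (chr3:88133477-88133872). It had a signal of 25.1 in replicate 1 and 10.4 in replicate 2, and the authors' conservative list kept it, with 30.8, where the optimal list did not.

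Promoters were compared next. The RefSeq promoter window, 250 bases before a start and 50 after, held an optimal summit for Mef2a, Mef2b and Mef2d, and for 31.7% of the 17273 genes with such a window. None of the 3 Mef2c windows held one. The summits lay at -16 bp from the RefSeq start for Mef2a (signal 101) and -15 bp for Mef2b (179). Mef2d had 2 in its window, those of the overlapping peaks 5 and 7, at -176 and 31 bp (62.4 and 34.5). The Mef2b promoter is shown because it carried the strongest of them.
Mef2b promoter, 250 bases before the start, chr8:70152511-70152760 (GRCm38.p6, RefSeq, plus strand): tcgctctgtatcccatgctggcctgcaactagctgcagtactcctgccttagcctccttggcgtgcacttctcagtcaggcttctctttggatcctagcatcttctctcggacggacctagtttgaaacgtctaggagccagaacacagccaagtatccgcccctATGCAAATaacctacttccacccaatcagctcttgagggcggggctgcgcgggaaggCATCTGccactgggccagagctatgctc
Capitals mark the octamer and a CATCTG, the latter centred at -10.5 bp from the summit. An octamer lies in 1.68% and a CATCTG in 14.4% of the 21044 RefSeq promoter windows of protein-coding genes. The promoter stretches of Mef2a and Mef2d had a GC content of 61.6% and 73.2% and none of the marked motifs in the 250 bases before the start. Those of Mef2c had 33.6% to 49.6%, and the one at the third start held a CATCTG and an AP-1 site. The Mef2b 300-base window also held a CACCTG that is not within the bases shown, as did 19.9% of all windows, and no other member's window held a main E-box (32.2% of all windows did). The MEF2 consensus at Mef2a crosses the start itself, so it lies in the 300-base window, as for 2.61% of all windows.

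E-boxes were counted in the 25 mm9 peaks. A main E-box stood no further than 50 bp from the summit in 12 of them, 48% (95% Wilson interval 30.0 to 66.5, for counting error only), against 31.0% of all 23572 mm9 peaks on chromosomes 1 to 19 and X. The interval includes the overall share, close to its lower end, and it treats peaks of 1 gene as independent, so no difference is shown. With 25 bp to either side the count was 9 of 25 (36%, against 18.3% of all). With 100 bp it was 14 (56%, against 43.9%). A difference from the overall share was not tested at any distance. By gene the counts were 5 of 7 for Mef2b, 4 of 7 for Mef2d, 3 of 6 for Mef2a and 0 of 5 for Mef2c, where the 95% Wilson interval reaches up to 43.4%. The 5 Mef2c peaks do not include the strongest mm10 peak of that gene, which had no mm9 peak at its place. Any CANNTG lay in 18 of the 25 peaks (72%, against 52.1% of all).

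In several of these mm9 peaks the E-box sat almost under the summit. Distances this short were not counted over all mm9 peaks, so the closeness is not shown to be particular to these genes. The nearest main E-box was centred 0.5 bp from the summit in Mef2a peak 3 and in Mef2d peak 4, 2.5 bp in Mef2b peaks 5 and 6, 3.5 bp in Mef2d peak 2 and 7.5 bp in Mef2b peaks 2 and 4. In Mef2b peak 1, the strongest of all, the main E-boxes stood 26.5 and 33.5 bp away on opposite sides, with an EBF1 site between them. Mef2d peak 3 held 3 main E-boxes, the nearest 11.5 bp away, and in Mef2d peak 1 the nearest was 19.5 bp away. In Mef2a peaks 2 and 6 it was 38.5 and 39.5 bp away. The promoter peaks of Mef2a, Mef2b and Mef2d held none within 50 bp of the summit.

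Other motifs were rare in so few peaks. The octamer lay in 3 of 25 peaks (2.25% of all mm9 peaks), 1 each at Mef2b, Mef2c and Mef2d, and EBF1 sites lay in 3 (7.48% of all). The MEF2 consensus lay only in Mef2a mm9 peak 1, 1 of 25, against 0.912% of all mm9 peaks. On the mm9 list, a CRE was found at Mef2d peak 2, beside its CAGCTG, a PU.1 type ETS site at Mef2c peak 2, a RUNX site at Mef2c peak 4 and an IRF site at Mef2a peak 6. Over all mm9 peaks their shares were 1.02%, 3.13%, 4.72% and 4.10%. No AP-1, NF-kappaB, CACGTG or common ETS match was found in these 25 windows, and these lay in 7.64%, 1.99%, 3.56% and 2.94% of all mm9 peaks, shares at which 25 peaks are too few to show a lack. A match is a run of letters and was not tested as a binding site.

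**Figure D4:**
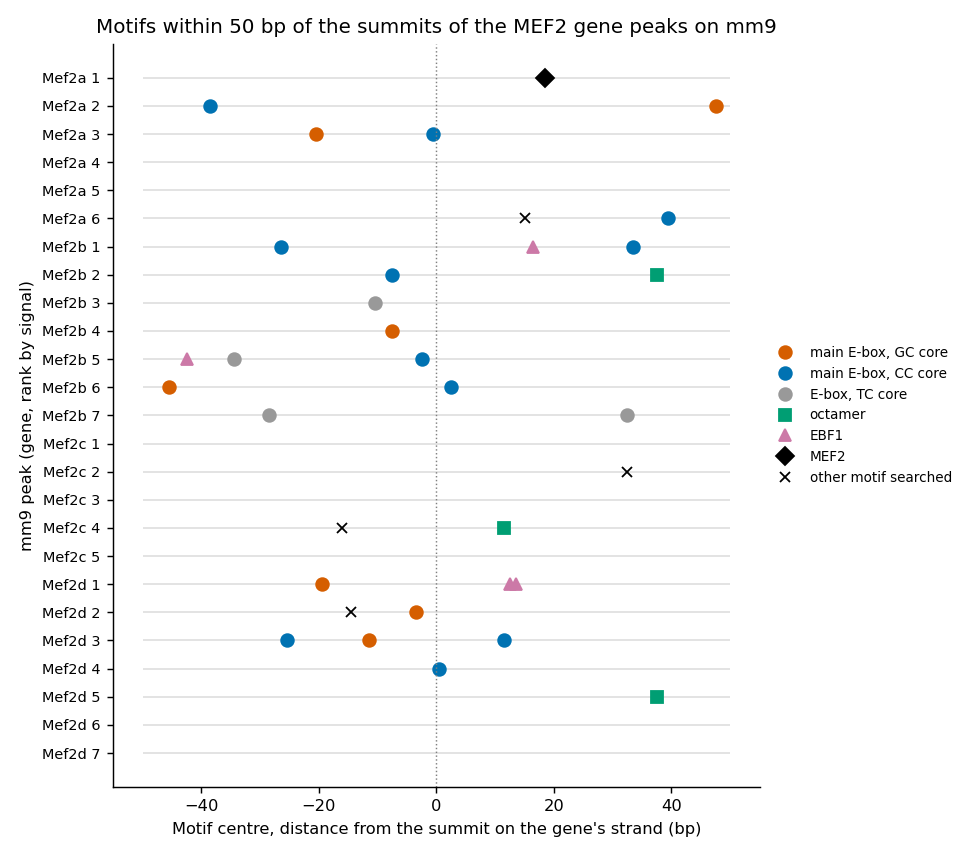
Position of each motif match (centre, in bp from the summit on the gene's strand) in the 25 mm9 peaks of the MEF2 genes, listed by gene and rank of signal, with a separate symbol for each kind of motif and no symbol where none matched. Main E-boxes occur in 12 rows and in none of the 5 Mef2c rows, which do not include the strongest mm10 peak of Mef2c.

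The mm9 and mm10 lists were set side by side by distance from the same RefSeq start, which was found in the mm9 genome by an exact match of its promoter sequence. Of the 25 mm9 peaks, 20 had an mm10 peak within 100 bp of the same distance, among them all 7 of Mef2b and all 7 of Mef2d. The mm9 ranking of Mef2b peaks 1 to 4 was the same as on mm10, with mm9 signals of 440.5, 348, 241 and 187 on that list's own scale. For Mef2a and Mef2c it was 3 of 6 and 3 of 5. The mm9 peaks 1 and 2 of Mef2c were 447 and 126 bp off from mm10 peaks 2 and 3, with 300 and 100 unread bases of mm9 in between. The strongest mm10 peak of Mef2c, at -1412 bp from the third start, had no mm9 peak nearer than 32306 bp in distance. The DNA between that place and the start has no unread base on mm9, and the cause was not tested. The sequence under that peak is therefore not shown.

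Genes whose products act on MEF2 proteins were examined together with the MADS-box relative Srf and its cofactors, 37 genes in all. Of these, 31 (83.8%) carried an optimal peak, against the 57.2% of all genes, and gene length was not matched. Among kinases and phosphatases 15 of 19 had one. The strongest was at Ppp3ca, the catalytic subunit of calcineurin, whose signalling favours MEF2 activity, with 23 peaks and a top signal of 281 (161 and 116 in replicates 1 and 2). Map2k3 and Map2k6, the kinases of p38, reached 194 (118 and 74.4, at -17 bp) and 119 (85.3 and 33.6), and Map3k3, a kinase above ERK5, reached 125 (72.5 and 56.7). Mapk11, Camk1, Prkd1 and Prkd3 had no optimal peak. Mapk7, the gene of ERK5 itself, had 33.9 (22.5 and 11.8).

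Among class IIa deacetylases and coregulators 12 of 14 genes had a peak. Nfatc1, a calcineurin-dependent partner of MEF2, had 28 peaks and a top signal of 241 (150 and 88.2). The deacetylase genes Hdac5 and Hdac7 reached 124 (81.7 and 46.9) and 111 (72.6 and 40.5), Hdac4 had 61.8, and Hdac9 and Hdac3 had none. Ncoa2, a coactivator gene, reached 87.3 (41.5 and 43.6). Srf, the other MADS-box factor gene, had 64.9 (30.2 and 34.5), and its cofactor genes Mrtfa, Mrtfb and Myocd had 69.6, 40.7 and 52.4. The median top signal over the 31 genes was 61.1, close to the 58.7 over all genes with a peak. Ppp3ca and Nfatc1 thus stood near Mef2b in top signal, and the Srf group below all 4 MEF2 genes.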

How the data were processed

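TCF12 ChIP-seq peaks came from 2 biological replicates, numbered as in the labels. Per the deposited descriptions, the authors called relaxed peaks on each replicate and on the pooled data with a control alignment on mm10, and an IDR step on those gave the conservative and optimal lists. The mm9 list came from both replicates' mm9 alignments. The caller, the aligner and their versions were not given in the sources used here. The signal is the authors' deposited caller value, and the score of the IDR lists is the deposited scaled IDR score. Read depth is unknown, and intervals cover counting error only.

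Summits (start plus offset, written counting from 1) were assigned to windows with Python 3.11.15, pandas and numpy. Genes came from RefSeq GRCm38.p6, with strand from the RefSeq promoter table for 17273 genes and from GENCODE vM1 by symbol for 4041, 98.6% of 21627 in all. A replicate's value at a peak is its strongest relaxed peak overlapping by at least 1 bp, whose summit can lie outside the peak. Sequence came from NCBIM37 (mm9), on which all mm9 peaks fitted, and no coordinate was converted. Window counting and motif search were tested on simulated data. With 1 group, no groups were compared.

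The members, motif list and regulator list were chosen with earlier results of these data known. Named genes were the members with their peaks (the 6 strongest and the weakest where there were over 8), and in each regulator list the 4 strongest and up to 4 without a peak. Mapk7 and Hdac4 were added after their values were seen.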

Additional observations from a re-analysis of the deposited data

How the results depend on the processing

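Of 72 alternative values, 65 stayed within the set limits: 1.5 times for a count, and 1 SD between replicates for a rank. The count of 65 is no measure of stability. A shorter upstream stretch could not change a rank, because each strongest peak lies inside its gene. For ranks without a replicate, the SD was made from the same 2 values that it judged. With only peaks of an IDR score of at least 830, a shorter list, the share of peaks above the strongest one rose to 12.99% for Mef2a, 0.4817% for Mef2b and 1.849% for Mef2d. Leaving out a replicate gave 7.309% to 12.45% for Mef2a (8.81% as reported), 0.3013% to 0.4463% for Mef2b (0.326%), 1.604% to 3.643% for Mef2c (2.76%) and 1.007% to 1.654% for Mef2d (1.25%). The Mef2c value without replicate 1 was the 1.604%, and the cause was not tested. With nothing upstream counted, Mef2b kept 4 of 10 peaks, and 7 of the 17 mm9 peaks left held a main E-box. Peak counts from 1 replicate ranged from 5 to 6 for Mef2a, 9 to 11 for Mef2b, 10 to 16 for Mef2c and 9 to 10 for Mef2d, and 31 to 33 genes of the regulator and Srf lists had a peak. With a score of at least 830, Mef2a, Mef2b, Mef2c and Mef2d had 5, 9, 9 and 8 peaks, so none reached 10. The conservative list gave 4, 9, 10 and 9. Of the 36 optimal peaks, 30 overlapped a conservative peak, 4, 7, 10 and 9 in the same order of genes. Unknown depth leaves weak peaks without an error of their own.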

Other observations

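Optimal peaks also lay beyond the windows, up to the next protein-coding gene. Before Mef2a, in the 137 kb to Lrrc28, 16 optimal peaks lay outside the window, 5 of them with a signal of 100 or more. The strongest, 38.5 kb before the 5' end (chr7:67414859-67415101 on mm10), had 205, with 130 in replicate 1 and 75.5 in replicate 2, above the strongest peak inside the Mef2a window (101). Before Mef2c, in the 1707 kb to Cetn3, there were 8, the strongest 438 kb away with 128 (75.2 and 55.4). After Mef2c, towards Tmem161b, there were 5, none above 34.4. Mef2d had 1 such peak, 5.60 kb past its 3' end, with 76.9 (44.8 and 34.7). Mef2b had 1, 3.97 kb past its 3' end, with 26.0 (18.8 and 3.72). Which gene these peaks act on was not tested.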
